A study of Gallus gallus with 24 samples.

Results

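The fibroblast growth factor (FGF) genes and their receptors were followed in the chick retina during form deprivation. The members were FGF1, FGF2, FGF9, FGF12, FGF13, FGF14, FGFR1, FGFR2 and FGFR3. They are 9 of the 13009 genes named on the array, and every probe set with one of their symbols was taken, which gave 21 of 38439 probe sets. Of these, 19 had a mean signal above the limit for testing and entered the fit with 26907 probe sets in all. The secreted ligands FGF1, FGF2 and FGF9 had 5 probe sets, of which 4 were tested. The intracellular FGF12, FGF13 and FGF14 had 6, of which 5 were tested, and the receptors had 10, all tested. Probe sets of a gene are numbered by their mean signal over all arrays, with the brightest as probe set 1, and their array identifiers stand in the plots.

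White Leghorn chicks wore a translucent plastic goggle on 1 eye. Without sharp images a chick eye grows too long, a state called form-deprivation myopia. The goggle was glued on under ether at 1 week of age, at light onset, on alternate sides. The other eye was left uncovered as the control. Goggled and open eyes were taken after 3 d, and goggled and open eyes of other chicks after 6 h, with 6 chicks at each time and 1 array for each of the 24 eyes. Neural retina and pigment epithelium were dissected together, so both tissues contributed to every value. All chicks carried a goggle, so the open eyes are fellow eyes of treated birds and not eyes of untreated birds. The labels give no allele and no other treatment. Values are linear signal intensities on Affymetrix Chicken Genome arrays, and a signal is compared only within 1 probe set.

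FGFs are cell-to-cell signals. Secreted members bind the receptor tyrosine kinases FGFR1 to FGFR3 together with heparan sulphate, and the receptors act through adaptors, RAS and the MAP kinases. FGF1 and FGF2 leave cells without a classical signal peptide, whereas FGF9 is exported by the usual route. FGF12, FGF13 and FGF14 stay inside neurons, where they bind the tails of voltage-gated sodium channels and tune their firing. In the embryonic chick, FGF2 can turn pigment epithelium into neural retina, and in form-deprived chicks injected FGF2 has been reported to slow eye growth.

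The labelled tissue showed its markers. Cone genes such as OPN1LW (mean signal 6380) and PDE6H (3980), the Mueller glia gene GLUL (5290), the amacrine gene GAD1 (5350) and the pigment epithelium gene RPE65 (3640) were bright. The median probe set was dimmer at 3 d. Array medians were 30.1 to 36.4 in goggled eyes at 3 d and 33.3 to 40.1 in open eyes at 3 d, against 35 to 44.1 in goggled eyes and 35.6 to 43.9 in open eyes at 6 h. The 3′ to 5′ signal ratio of actin, a measure of RNA and labelling quality, ran from 3.44 to 5.05 and from 3.38 to 3.92 in goggled and open eyes at 3 d, and from 2.87 to 4.53 and from 2.4 to 5.01 at 6 h. For background, the 57 reporter probe sets (for sequences of no chicken gene) had a 95th percentile of 22.8. Some arrays held more signal of choroid, sclera and vessel markers than the rest and are described with FGFR2.

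No FGF or FGFR probe set passed the test between goggled and open eyes at either time. By limma, with p-values adjusted over all probe sets tested, 0 of 19 members were called at 3 d, where 0.00743% of all probe sets were called, and 0 of 19 at 6 h, where 0% were. The count was also 0 over both times (0.00743% of all) and when the goggle effects of the 2 times were compared (0% of all). Unadjusted p-values under 0.05 numbered 2 of 19 at 3 d, 0 at 6 h, 1 over both times and 1 for the difference. Over all probe sets the shares were 5.38%, 2.36%, 6.04% and 2.23%, in the same order. With the chick as a fixed block the calls were again 0, where 0.0111% of all probe sets were called over both times, and the unadjusted counts were 2, 0, 1 and 2. With this block 2395, 1233, 2599 and 1136 of all 26907 probe sets had an unadjusted p under 0.05. A random block for the chick also gave 0 member calls. Among the tested members, 15 of 19 were lower in goggled eyes at 3 d, with a median log2 difference of -0.10 beside -0.03 over all probe sets, and 12 of 19 were lower at 6 h, with a median of -0.05 beside -0.01. The 8 amacrine markers had a lower mean log2 signal in the goggled eye of 6 of 6 chicks at both times. It was 9.49 to 9.72 in goggled eyes and 9.74 to 10.16 in open eyes at 3 d, and 9.63 to 9.77 in goggled eyes and 9.75 to 9.88 in open eyes at 6 h. This mean weighs dim markers such as TH (mean signal 46.2) as much as bright ones such as GAD1 (5350). Single markers are not described here. The summed signal of the amacrine markers was not lower in the goggled eye of every chick at either time. It overlapped between the eyes, at 15548 to 18555 in goggled and 16766 to 20308 in open eyes at 3 d. At 6 h it was 15182 to 17482 and 15849 to 17630. The 8 Mueller glia markers also had a lower mean log2 signal in the goggled eye of 6 of 6 chicks at 6 h, and of 4 of 6 at 3 d. Their summed signal at 6 h was not lower in the goggled eye of every chick. It overlapped between the eyes, at 19992 to 26550 in goggled and 21649 to 26810 in open eyes. The part of these 2 marker lists in the members' values was not tested. In simulated data, 50 probe sets each were changed by 0.5, 0.75, 1 or 1.5 on the log2 scale, all together among 26907. Between goggled and open eyes at 3 d, limma called 34% of those changed by 0.5 and 72% of those changed by 0.75. The larger changes loosen the adjusted threshold, and the noise was drawn independently for each array. These shares therefore need not hold for the measured data, where 2 probe sets were called at 3 d.

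**Figure D1:**
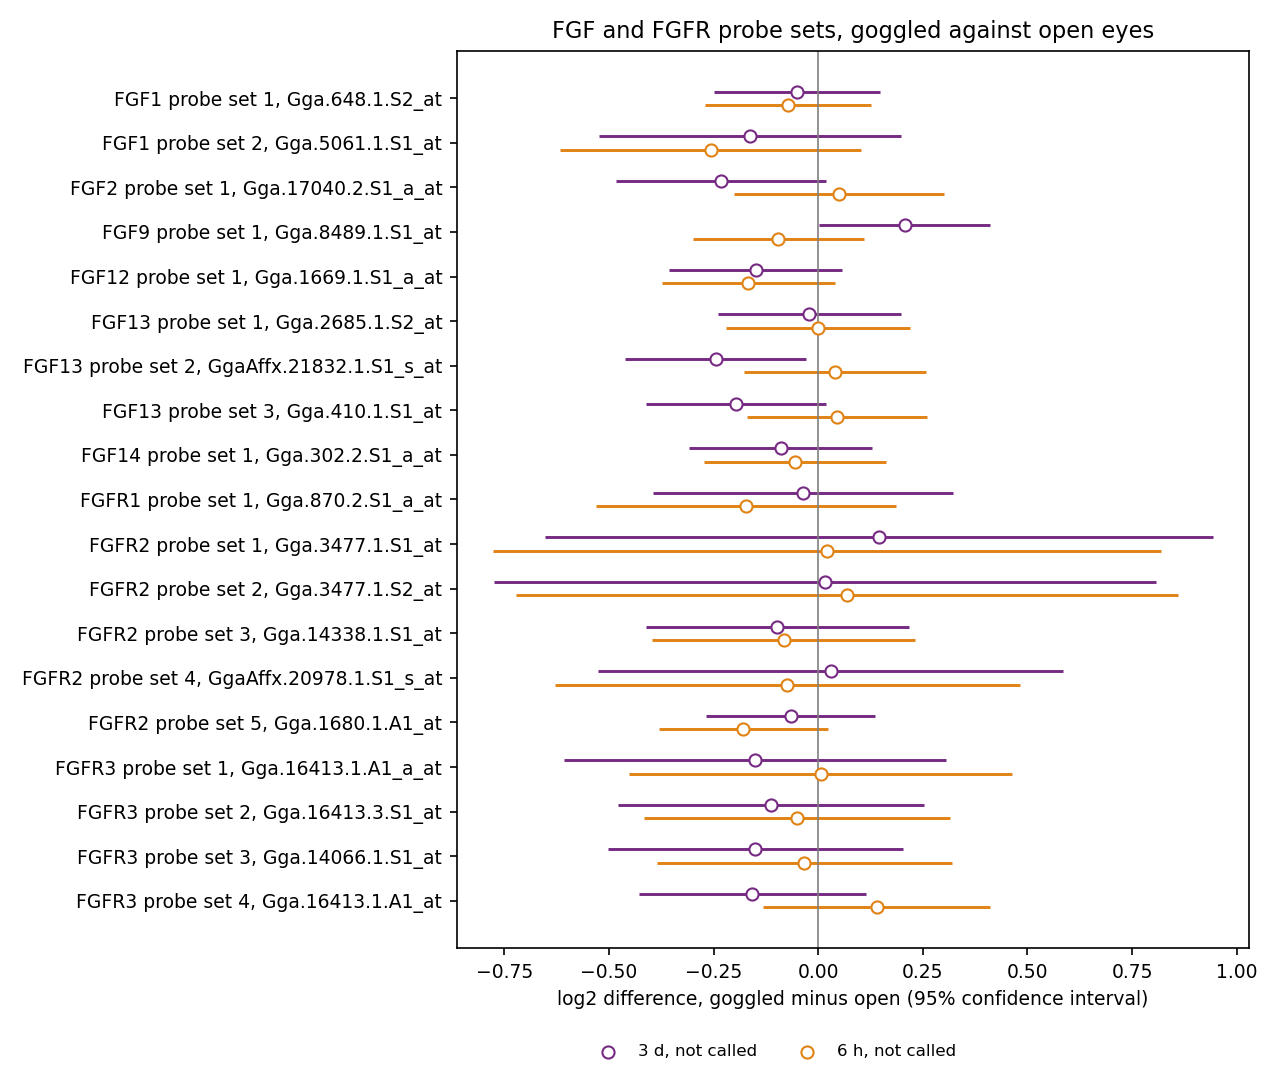
Log2 difference of goggled minus open eyes for the 19 tested FGF and FGFR probe sets at 3 d (purple) and 6 h (orange), with 95% confidence intervals from limma without the chick as a block. Open circles are probe sets that were not called. None was called, and the widest intervals belong to 3 FGFR2 probe sets.

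The 2 times differed far more. In goggled eyes 6 of 19 members (31.6%) were called between 3 d and 6 h, 5 of them lower at 3 d and 1 higher, where 12.7% of all probe sets were called, 8.57% lower and 4.13% higher. In open eyes 2 of 19 (10.5%) were called, both lower at 3 d, where 7.32% of all probe sets were called, 4.71% lower and 2.61% higher. The intracellular FGF14 passed in both eyes, as did FGF13 by its probe set 3 only. The median log2 difference of the members was -0.21 in goggled and -0.13 in open eyes, beside -0.08 and -0.05 over all probe sets. Chicks at 3 d and at 6 h were different birds and those at 3 d were older, the hour of sampling is given only for 6 h, and array batches are not given, so none of these can be told apart from the duration of goggle wear. The eyes come from the same chicks, so the comparison in open eyes is not an independent repeat of that in goggled eyes. In these bulk samples, fewer cells of a type and less RNA per cell cannot be told apart.

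**Figure D2:**
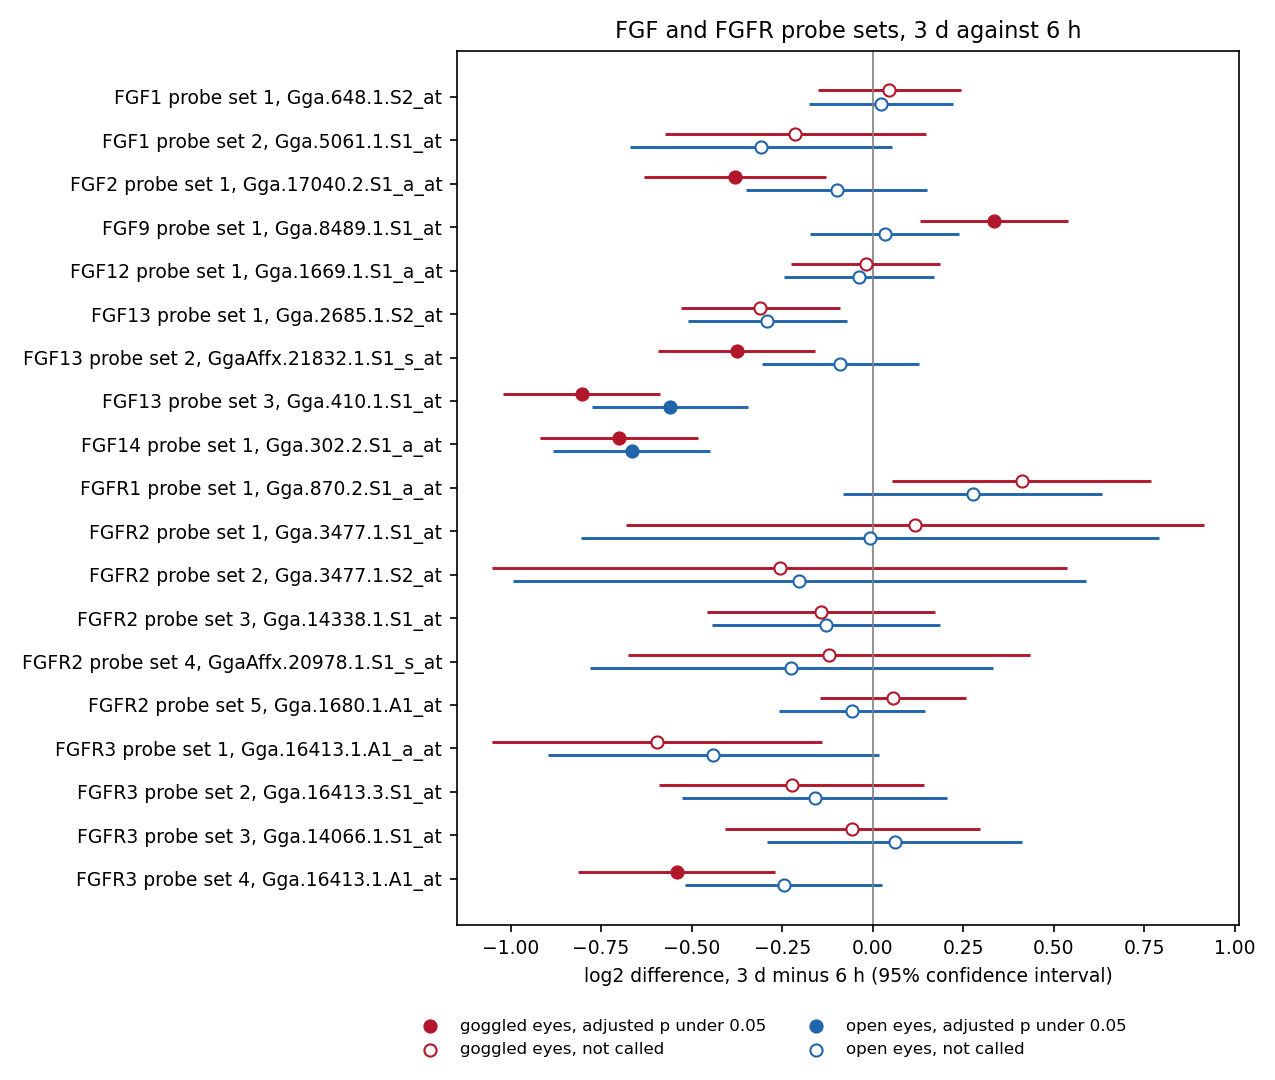
Log2 difference of 3 d minus 6 h for the 19 tested FGF and FGFR probe sets in goggled eyes (red) and open eyes (blue), with 95% confidence intervals from limma; filled circles passed an adjusted p of 0.05. FGF13 (probe set 3) and FGF14 were lower at 3 d in both eyes.

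FGF13 had 4 probe sets, which gave different sizes of change. Probe set 3, the one named when the members were chosen, had signals of 52.6 to 85 (median 63.9) in goggled eyes and 67.7 to 92.2 (median 75.5) in open eyes at 3 d. Its signals at 6 h were 112.3 to 135 (median 127) in goggled eyes and 95.4 to 153.7 (median 116.6) in open eyes. Every array at 3 d lay below every array at 6 h in both eyes. The log2 difference of 3 d minus 6 h was -0.80 in goggled eyes (SE 0.10, 95% interval -1.02 to -0.59, 1.74-fold lower, limma adjusted p = 0.000124) and -0.56 in open eyes (SE 0.10, -0.77 to -0.34, 1.47-fold lower, adjusted p = 0.00256). Folds are ratios of signal plus 16, which makes them smaller for dim probe sets. The difference between the eyes in this change was -0.24 (SE 0.15, adjusted p = 1). Groups that did not overlap, with 3 d below, made up 3.63% of all probe sets in goggled eyes and 2.01% in open eyes. Over 38 alternative settings its value stayed between -0.94 and -0.61 in goggled eyes and between -0.65 and -0.43 in open eyes, with an adjusted p of at most 0.00182 and 0.0201.

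Probe set 2 of FGF13, of a type whose probes can match transcripts of more than 1 gene, had 89.9 to 115.8 (median 104.3) in goggled eyes and 108.1 to 147.5 (median 125.5) in open eyes at 3 d. It had, at 6 h, 124.4 to 165.6 (median 135.3) in goggled eyes and 94.3 to 157.7 (median 144.5) in open eyes. The groups of goggled eyes did not overlap between the times, and those of open eyes did. It was lower at 3 d in goggled eyes by the test (log2 -0.38, SE 0.10, limma adjusted p = 0.0215), but not in open eyes (-0.09, adjusted p = 0.658). The call was lost without goggled replicate 1 of 3 d (adjusted p = 0.0505) and without goggled replicate 5 of 6 h (adjusted p = 0.0561), and under quantile normalization (log2 -0.31, adjusted p = 0.0536) and median centring (-0.18, adjusted p = 0.23). It was also the member with the smallest p between the eyes at 3 d: all 6 chicks had the lower signal in the goggled eye, with log2 differences of -0.33 to -0.16 and a mean of -0.24 (SE 0.10, unadjusted p = 0.0286, adjusted p = 0.916). With the chick as a block the unadjusted p was 0.0066 and the adjusted p 0.407. At 6 h only 2 of 6 chicks were lower in the goggled eye (log2 0.04). The goggled and open groups overlapped at both times.

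The brightest FGF13 probe set had 361.5 to 488.7 (median 450.9) in goggled eyes and 408.6 to 512 (median 433) in open eyes at 3 d. At 6 h it had 439.9 to 647.1 (median 573.7) in goggled eyes and 455.7 to 696 (median 543.5) in open eyes. These groups overlapped. Its log2 difference was -0.31 in goggled eyes (SE 0.11, limma adjusted p = 0.055) and -0.29 in open eyes (adjusted p = 0.0963), just outside the threshold. In goggled eyes it came inside without goggled replicate 1 of 6 h (adjusted p = 0.0291), goggled replicate 5 of 6 h (0.0383), open replicate 1 of 6 h (0.0488) or open replicate 3 of 6 h (0.0378). It also did under 8 other settings, among them the looser threshold of 0.10. In 26 of 38 settings it stayed uncalled. Over all 38 the log2 difference in goggled eyes ran from -0.37 to -0.11, with an adjusted p of up to 0.585. FGF13 probe set 4 was too dim to test, with no array above 22.8. Which transcripts of FGF13 each probe set reads was not analysed here.

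FGF14 fell at 3 d in both eyes. Its single probe set had 117 to 174.4 (median 154.4) in goggled eyes and 133.2 to 212.3 (median 155.9) in open eyes at 3 d. The 6 h values were 219.8 to 282.2 (median 266.9) in goggled eyes and 230.6 to 300 (median 271.1) in open eyes. As with FGF13 probe set 3, every array at 3 d was below every array at 6 h. The log2 difference was -0.70 in goggled eyes (SE 0.11, 95% interval -0.92 to -0.48, 1.63-fold lower, limma adjusted p = 0.000289) and -0.67 in open eyes (SE 0.11, -0.88 to -0.45, 1.59-fold lower, adjusted p = 0.000965). The change differed by -0.03 between the eyes (SE 0.15, adjusted p = 1). Goggled minus open was -0.09 at 3 d (95% interval -0.31 to 0.13) and -0.06 at 6 h (-0.27 to 0.16). Over 38 alternatives the change stayed between -0.76 and -0.50 in goggled eyes and between -0.74 and -0.54 in open eyes, with an adjusted p of at most 0.00297 and 0.0138. Among the 8451 probe sets with a mean signal over 200, the median log2 difference was 0.05 in goggled and 0.04 in open eyes. FGF14, with a mean of 209.5, lies just inside this class. For the 8667 probe sets with a mean of 50 to 200 the median was -0.08 and -0.06. FGF13 probe set 3 (mean 97.75) belongs to that class.

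FGF12, the third intracellular gene, passed the test in no comparison. Its single probe set had 396 to 577.1 (median 456.1) in goggled eyes and 470.4 to 663.1 (median 490.9) in open eyes at 3 d. At 6 h it had 403.1 to 528.9 (median 494.3) in goggled eyes and 449.4 to 608.7 (median 546.9) in open eyes. All 4 groups overlapped. The log2 difference of 3 d minus 6 h was -0.02 in goggled eyes (95% interval -0.23 to 0.19) and -0.04 in open eyes (-0.24 to 0.17), intervals that leave out changes of the size seen in FGF14. Between the eyes FGF12 had the smallest p over both times, with goggled minus open at -0.16 (SE 0.07, lower in 9 of 12 chicks, unadjusted p = 0.0355, limma adjusted p = 0.81, and 0.0374 and 0.489 with the chick as a block). This value was -0.15 at 3 d and -0.17 at 6 h.

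Marker levels of the retinal neurons overlapped between the times. The summed signal of 6 of 9 ganglion cell markers ran from 8091 to 10062 in goggled eyes and 7652 to 10364 in open eyes at 3 d, and from 9045 to 9648 and 8449 to 9840 at 6 h. For the 8 amacrine markers it ran from 15548 to 18555 and from 16766 to 20308 at 3 d, and from 15182 to 17482 and 15849 to 17630 at 6 h. By mean log2 signal the groups of both lists also overlapped between the times. The amacrine list averaged 9.60 in goggled and 9.90 in open eyes at 3 d, and 9.71 and 9.81 at 6 h. The ganglion list averaged 9.70 and 9.74 at 3 d, and 9.80 and 9.74 at 6 h. The mean log2 signal of 8 of 11 rod and cone markers was higher at 3 d on average, and its groups overlapped. It ran from 10.27 to 10.71 in goggled eyes and 10.41 to 10.83 in open eyes at 3 d, and from 10.07 to 10.49 and 9.93 to 10.49 at 6 h. Likewise, for 4 of 7 bipolar markers it ran from 9.92 to 10.14 and 9.91 to 10.20 at 3 d, and from 9.76 to 9.99 and 9.76 to 10.05 at 6 h. Their part in the change of FGF13 and FGF14 was not tested.

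**Figure D3:**
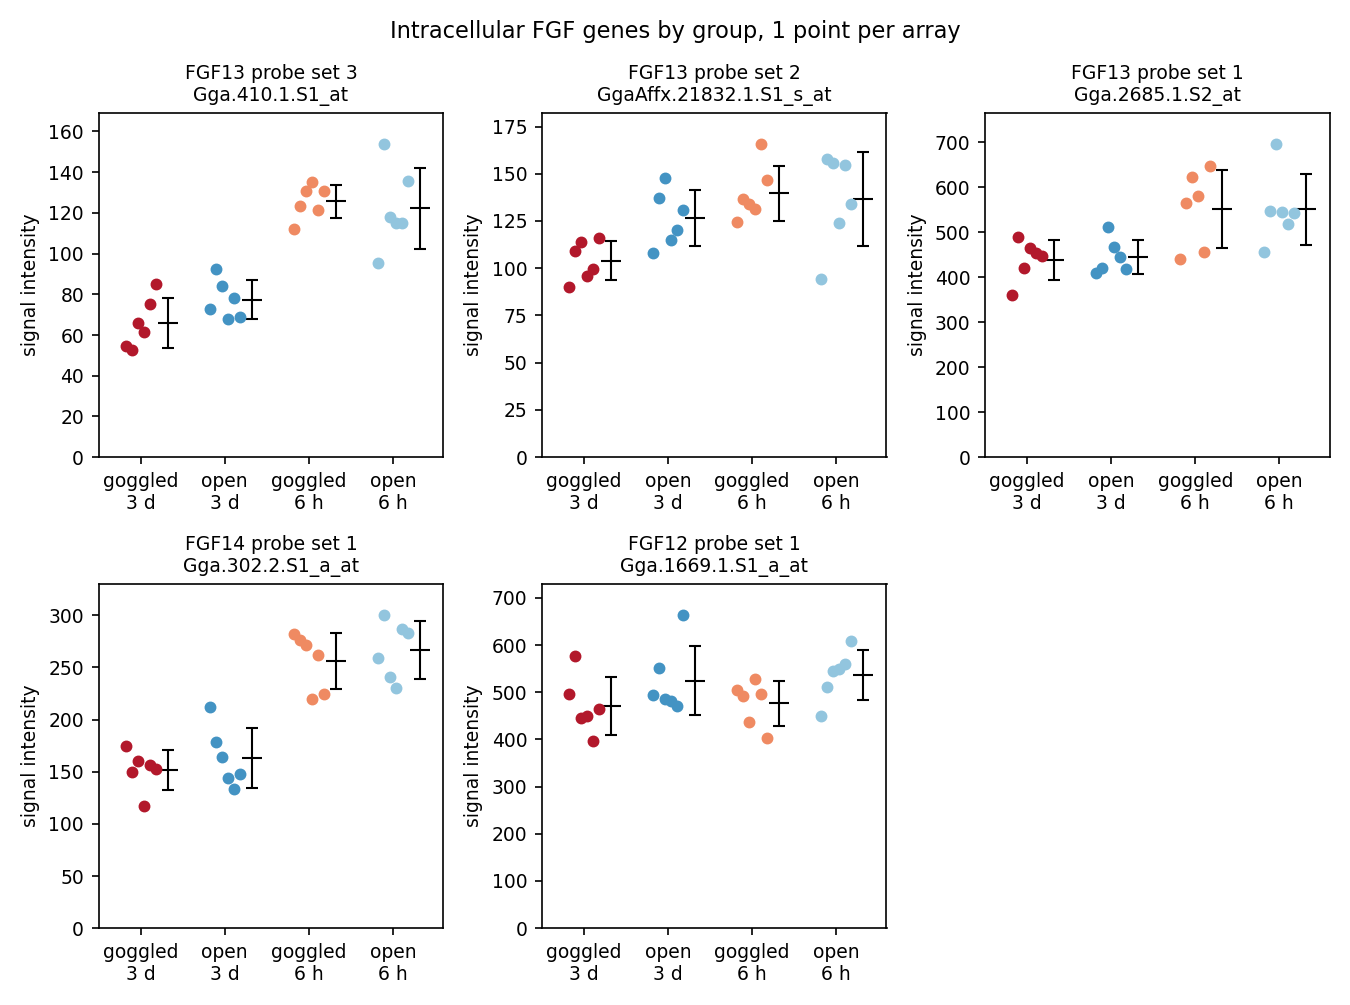
Signal intensity of the 5 tested probe sets of the intracellular FGF genes on each array, in goggled and open eyes at 3 d and 6 h, with the mean and SD of each group of 6 at its right. FGF13 (probe set 3) and FGF14 separate the times in both eyes, and FGF12 does not.

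Of the secreted ligands, FGF9 had the only member call upward. Its single probe set had 120 to 177.2 (median 158.4) in goggled eyes and 113 to 162.5 (median 127.2) in open eyes at 3 d. The 6 h signals were 97.4 to 151.2 (median 119.4) in goggled eyes and 119.6 to 142.1 (median 126.2) in open eyes. Goggled eyes at 3 d had the highest median, the medians of the other 3 groups lay close together, and all groups overlapped. The log2 difference of 3 d minus 6 h was 0.34 in goggled eyes (SE 0.10, 95% interval 0.13 to 0.54, 1.26-fold higher, limma adjusted p = 0.0285) and 0.03 in open eyes (-0.17 to 0.24, adjusted p = 0.882). The call was lost without goggled replicate 2 (adjusted p = 0.0625), 4 (0.0676) or 5 (0.0522) of 3 d, or goggled replicate 2 (0.0739) or 5 (0.0586) of 6 h, and when only the 12 arrays compared were fitted (0.0613). Between the eyes FGF9 was higher in the goggled eye of 5 of 6 chicks at 3 d (log2 0.21, unadjusted p = 0.0478, adjusted p = 0.922) and lower in 5 of 6 at 6 h (-0.10, adjusted p = 1). With the chick as a block in limma, the 3 d comparison had an unadjusted p of 0.0218 and an adjusted p of 0.479. The difference between these goggle effects was 0.30 (SE 0.14, unadjusted p = 0.0411, adjusted p = 1). With the chick as a block its unadjusted p was 0.0183, and it was not called.

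FGF2 was dim. Its single probe set had 17.7 to 29.1 (median 25.4) in goggled eyes and 23.4 to 39.2 (median 31.7) in open eyes at 3 d. At 6 h it had 30.9 to 43.3 (median 36.3) in goggled eyes and 22.5 to 43.4 (median 38.4) in open eyes. In goggled eyes the times did not overlap, but only 3 of the 6 arrays at 3 d exceeded the background of 22.8. The log2 difference was -0.38 in goggled eyes (SE 0.12, limma adjusted p = 0.0404) and -0.10 in open eyes (adjusted p = 0.675), and the median over the 9789 probe sets with a mean signal under 50 was -0.20 and -0.13. The call was lost without goggled replicate 1 (adjusted p = 0.0837), 2 (0.0707) or 4 (0.0951) of 3 d, without goggled replicate 2 (0.0732), 4 (0.0655), 5 (0.0909) or 6 (0.0569) of 6 h, and under 5 other settings, among them quantile normalization (log2 -0.19, adjusted p = 0.38) and median centring (-0.18, adjusted p = 0.314).

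FGF1, a ligand that binds every FGF receptor, passed the test in no comparison. Its bright probe set 1 had 266.5 to 355.5 (median 305.6) in goggled eyes and 267.2 to 408.4 (median 316.9) in open eyes at 3 d, and 269.3 to 317.4 (median 305.9) in goggled and 286 to 363.6 (median 314.1) in open eyes at 6 h. The 3 d minus 6 h difference was 0.05 in goggled eyes (95% interval -0.15 to 0.24) and 0.02 in open eyes (-0.18 to 0.22), and goggled minus open was -0.05 at 3 d and -0.07 at 6 h. Probe set 2 was near background (medians 20.7 to 36.3) and was not called in any comparison. Probe set 3 was too dim to test, with no array above 8.9.

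Set against each other, the intracellular and secreted genes differed in their goggle effect by less than the spread between chicks. With 1 probe set for each gene, the brightest, the mean of FGF12, FGF13 and FGF14 in goggled minus open eyes was -0.09 ± 0.07 on the log2 scale at 3 d (SD, n = 6 chicks), and that of FGF1, FGF2 and FGF9 was -0.03 ± 0.17. The intracellular minus secreted difference was -0.06 ± 0.18 and lay below 0 in 3 of 6 chicks. At 6 h the intracellular mean was -0.07 ± 0.11, the secreted mean -0.04 ± 0.12 and the difference -0.03 ± 0.15, below 0 in 4 of 6 chicks. With FGF13 probe set 3 in place of the brightest the difference was -0.12 at 3 d and -0.02 at 6 h. No p is given, since the genes were chosen for this contrast. Over time, 3 of 5 intracellular probe sets were called lower in goggled eyes and 2 of 5 in open eyes. Of all probe sets, 8.57% and 4.71% were called lower, and 4.13% and 2.61% higher, in goggled and open eyes. Most of the 5 intracellular probe sets are of FGF13, so they are not separate genes. Of 4 secreted ones, 1 was called lower and 1 higher in goggled eyes and 0 in open eyes.

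Among the receptors, FGFR3 had a call in 1 of its 4 probe sets, between the times in goggled eyes, where 12.7% of all probe sets were called. This was probe set 4, the dimmest, which had 20.2 to 35.9 (median 30.6) in goggled eyes and 27.3 to 41.8 (median 32) in open eyes at 3 d. Signals at 6 h were 42.9 to 60.9 (median 47.2) in goggled eyes and 30.6 to 68.9 (median 37.8) in open eyes. The goggled groups did not overlap between the times, and the open groups did. The log2 difference was -0.54 in goggled eyes (SE 0.13, 95% interval -0.81 to -0.27, 1.46-fold lower, limma adjusted p = 0.0098) and -0.25 in open eyes (adjusted p = 0.273), and the change differed between the eyes by -0.30 (SE 0.19, adjusted p = 1). Of the 6 goggled arrays at 3 d, 4 exceeded the background of 22.8, and probe sets with a mean signal under 50, to which this one belongs, had a median of -0.20 in goggled and -0.13 in open eyes. Quantile normalization ended the call (log2 -0.35, adjusted p = 0.0639), and an offset of 50 gave -0.33, still called.

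The brightest FGFR3 probe set had 152.9 to 410.5 (median 197.9) in goggled eyes and 134.7 to 332.4 (median 267.7) in open eyes at 3 d, and 268 to 432.9 (median 317.3) in goggled and 254.2 to 552.4 (median 308.5) in open eyes at 6 h. The value of 410.5 came from goggled replicate 3 of 3 d, the array highest in choroid markers, and the other 5 arrays of that group lay below all goggled arrays of 6 h. The log2 difference in goggled eyes was -0.60 with all arrays (SE 0.22, limma adjusted p = 0.076), -0.78 without that array (adjusted p = 0.0165) and -0.78 without the 3 arrays highest in these markers (adjusted p = 0.00822). In open eyes it was -0.44 (adjusted p = 0.236). In goggled eyes 33 of 38 settings gave no call. Over all 38 the log2 difference there ran from -0.78 to -0.40, with an adjusted p of up to 0.201. The part of the choroid markers in these values was not tested. The other FGFR3 probe sets gave -0.22 (probe set 2) and -0.06 (probe set 3) in goggled eyes, with intervals that include 0.

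FGFR1 was higher at 3 d in both eyes without a call. Its single probe set had 229.3 to 357.2 (median 250.2) in goggled eyes and 185.4 to 363.4 (median 283.9) in open eyes at 3 d, and 149.5 to 279.6 (median 189.8) in goggled and 152.4 to 289.4 (median 226.9) in open eyes at 6 h. The groups overlapped. The log2 difference of 3 d minus 6 h was 0.41 in goggled eyes (SE 0.17, limma adjusted p = 0.117) and 0.28 in open eyes (adjusted p = 0.362). Median centring, which raised the median of all probe sets by 0.20 in goggled eyes, gave 0.61 and a call (adjusted p = 0.0107). Goggled minus open was -0.04 at 3 d (95% interval -0.39 to 0.32) and -0.17 at 6 h (-0.53 to 0.19).

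**Figure D4:**
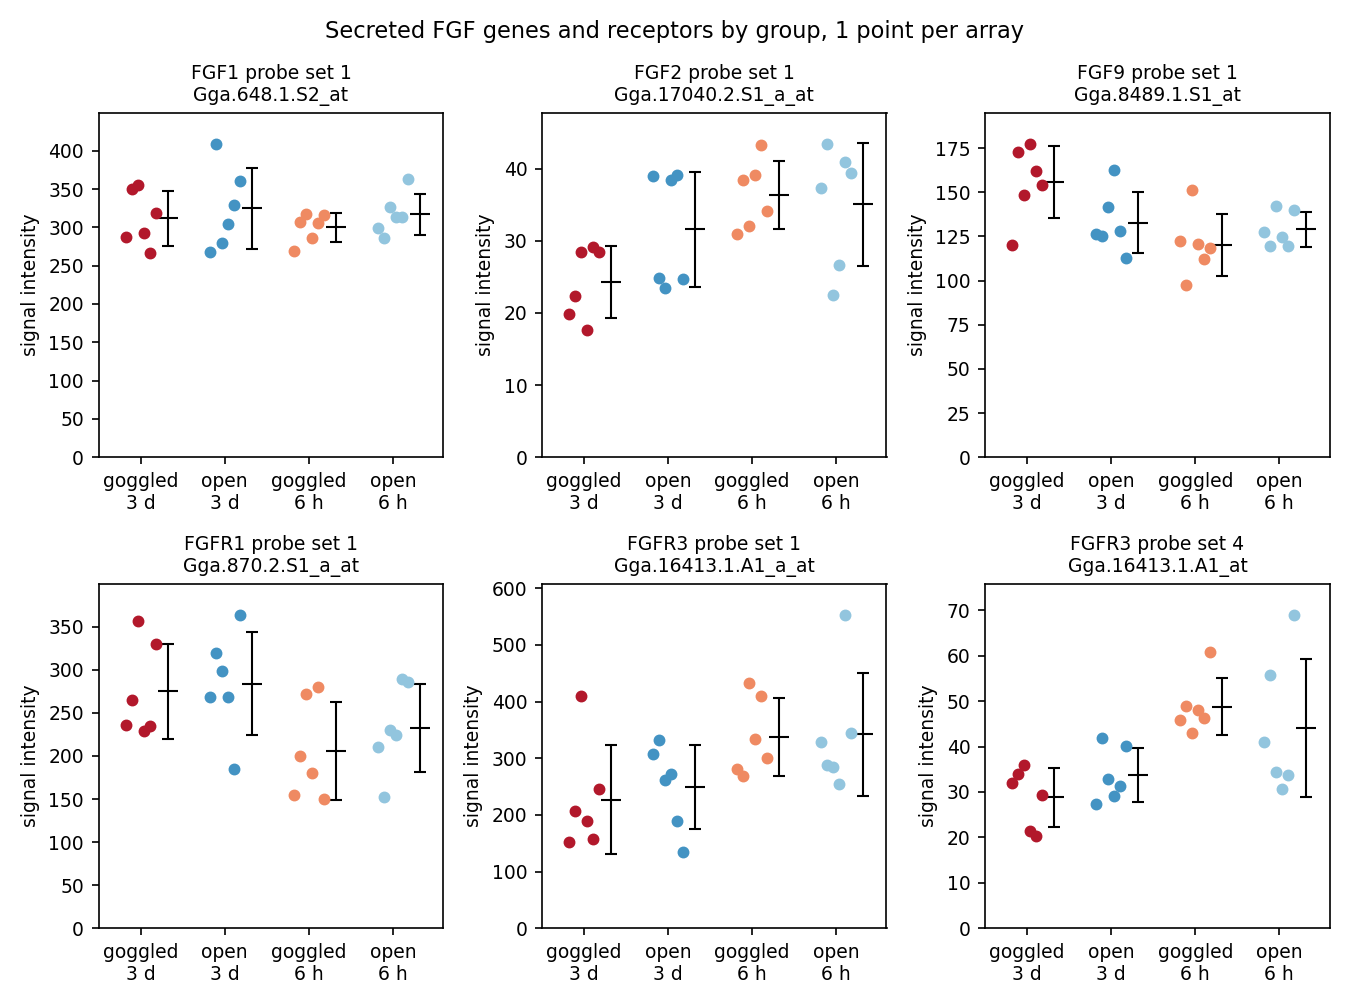
Signal intensity of the brightest probe set of FGF1, FGF2, FGF9 and FGFR1 and of 2 FGFR3 probe sets on each array, in goggled and open eyes at 3 d and 6 h, with the mean and SD of each group of 6 at its right. FGF9 has its highest median in goggled eyes at 3 d, and FGFR3 probe set 4 separates the times in goggled eyes.

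FGFR2 varied from array to array more than between the groups. In 3 of its 5 probe sets the same few arrays stood out. Probe set 1 had 245.9 on goggled replicate 3 of 3 d, beside 48.8 to 87.7 on the other goggled arrays of 3 d, and 145.3 on open replicate 2 of 3 d, beside 50.3 to 73.8. It had 294.4 on goggled replicate 5 of 6 h, beside 41.3 to 66.9, and in open eyes of 6 h it had 209.1 on replicate 1 and 93.2 on replicate 5. Probe sets 2 and 4 had their 3 highest signals on goggled replicate 5 of 6 h (305.4 and 110.3), open replicate 1 of 6 h (221.8 and 65.7) and goggled replicate 3 of 3 d (194.9 and 53). Probe set 4 is of the type whose probes can match transcripts of more than 1 gene.

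These arrays were also high in choroid, sclera and vessel markers, tissue that lies outside the dissected layers. By the mean of the 13 of 16 such markers that were tested, goggled replicate 3 of 3 d ranked 1 of 24, open replicate 5 of 6 h ranked 2, open replicate 2 of 3 d ranked 3, goggled replicate 5 of 6 h ranked 4 and open replicate 1 of 6 h ranked 7. The summed signal of the list ran from 519.1 to 5595 in goggled eyes and 567.1 to 2925 in open eyes at 3 d, and from 664.4 to 1848 and 541.9 to 2909 at 6 h. No tested marker of the list was at 0, and the mean signals ran from 34.4 (PDGFRA) to 212 (COL3A1). Muscle markers, of which 2 of 7 were tested, had a mean log2 signal of 7.69 on goggled replicate 3 of 3 d, 7.22 on goggled replicate 5 of 6 h and 9.18 on goggled replicate 6 of 6 h, beside 4.62 to 5.86 on the other 21 arrays. Markers of microglia and blood, of which 5 of 8 were tested, were high on the same arrays as the choroid markers. Their summed signal was 4726 on goggled replicate 3 of 3 d, 1997 on open replicate 2 of 3 d, 2033 on goggled replicate 5 of 6 h, 2624 on open replicate 1 of 6 h and 2075 on open replicate 5 of 6 h, which ranked 1, 6, 4, 2 and 3 of 24. Over all arrays it ran from 600.4 to 4726 in goggled eyes and 700.9 to 1997 in open eyes at 3 d, and from 940.7 to 2033 and 937 to 2624 at 6 h. By the mean log2 signal of 11 pigment epithelium and melanin markers, the same arrays ranked 1, 5, 9, 7 and 6 of 24, in the same order. Pigment epithelium was part of the dissected tissue. The arrays that ranked 2, 3 and 4 by these markers had signals of 66, 57.1 and 70 in FGFR2 probe set 1. The part of these marker lists in the FGFR2 signal was not tested. No FGFR2 probe set was called in any comparison. Goggled minus open at 3 d was 0.15 for probe set 1 (95% interval -0.65 to 0.94), 0.02 for probe set 2 (-0.78 to 0.81) and 0.03 for probe set 4 (-0.53 to 0.59), and the intervals are the widest of the members. FGFR2 probe sets 3 (medians 29.9 to 38.1) and 5 (medians 16.1 to 19.2) were dim. Probe set 5 was highest on open replicate 1 of 6 h (28.6). Among goggled eyes of 3 d both were highest on replicate 3 (41.1 and 20.3), by less than in the brighter probe sets. Goggled eyes of 6 h reached higher signals, 50.4 in probe set 3 and 20.6 in probe set 5.

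**Figure D5:**
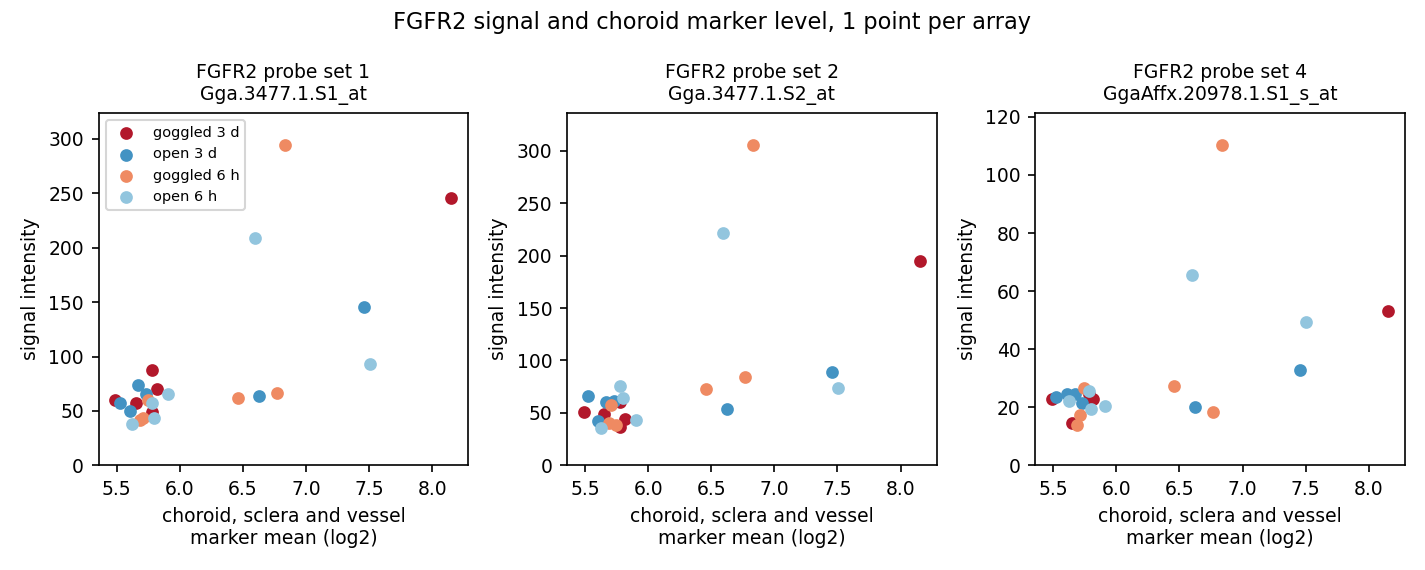
Signal intensity of 3 FGFR2 probe sets against the mean log2 signal of the choroid, sclera and vessel markers, 1 point for each of the 24 arrays, coloured by eye and time. The 5 arrays with the highest signals of probe set 1 lie at a marker mean of 6.60 or more, and arrays at 6.63 and 6.77 have signals of 63.9 and 66.9.

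The rest of the pathway gave 0 calls between goggled and open eyes in the 6 lists examined (153 probe sets tested), by limma with and without the chick as a block. Among feedback regulators and targets, 25 probe sets of 15 genes had a median log2 difference of -0.04 at 3 d, beside -0.03 over all probe sets. The lowest was DUSP4, a phosphatase that switches off MAP kinases. DUSP4 averaged 34.4 ± 10.4 in goggled eyes and 62.6 ± 13.3 in open eyes at 3 d (SD, n = 6 each; log2 -0.65, adjusted p = 0.381), lower in 5 of 6 chicks. Its second probe set gave -0.57 (adjusted p = 0.7), lower in 6 of 6. The highest of this list at 3 d was IL17RD, a membrane inhibitor of FGF signalling (log2 0.21). At 6 h the list ran from -0.77 (EGR1) to 0.27 (SPRY3), and 19 of 25 probe sets were lower in goggled eyes. Its median was -0.06, beside -0.01 over all probe sets. Among other ligands, with 7 probe sets, the values at 3 d ran from -0.09 (FGF5) to 0.26 (FGF18). Heparan sulphate genes (45 probe sets) ran from -0.33 (HSPG2, perlecan) to 0.26 (GPC4, a glypican), adaptors and kinases (36) from -0.42 (SOS2) to 0.25 (MAP2K2), other receptors and co-receptors (13) from -0.29 (FLRT2) to 0.28 (CDH2, N-cadherin), and partners of the intracellular FGFs (27) from -0.33 (SCN9A) to 0.15 (SCN2A).

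Between the times 5 of these lists had calls in both directions, beside the 12.7% of all probe sets called in goggled and 7.32% in open eyes. Genes are named here by their called probe sets. Uncalled probe sets of the same genes, as in SCN2A and FLRT2, are not described, so a named gene need not change in all its probe sets. Of the 27 probe sets for partners of the intracellular FGFs, 5 were lower and 1 higher at 3 d in goggled eyes, and 2 lower and 1 higher in open eyes (22.2% and 11.1% of the list called). The sodium channel genes SCN2A (log2 -0.51, limma adjusted p = 0.0383), SCN3A (-0.46, 0.0401) and SCN3B (-0.39, 0.0272) were lower in goggled eyes, as was the kinase scaffold MAPK8IP1 (-0.66, 0.027). SCN8A had probe sets called in opposite directions (-0.61 and 0.58). In open eyes SCN2A (-0.53) and SCN3A (-0.61) were called lower too, and SCN8A higher (0.56). The median of this list was -0.18 in goggled and -0.06 in open eyes.

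Among adaptors and kinases, 5 of 36 probe sets were lower and 2 higher at 3 d in goggled eyes, and 4 lower and 3 higher in open eyes (19.4% in each). GRB2, the adaptor that recruits SOS to activated receptors, was lower in both eyes (log2 -0.44 in goggled, adjusted p = 0.00186, and -0.47 in open eyes, adjusted p = 0.00199), and the kinase BRAF was higher in both (0.50, adjusted p = 0.00799, and 0.43, adjusted p = 0.0279). Of the 2 called SOS2 probe sets, 1 was lower in both eyes (-0.63 and -0.56) and the other in goggled eyes (-0.70), GAB1 was lower in goggled eyes (-0.65), and PLCG1 (-0.40) and SOS1 (0.53) were called in open eyes. PIK3R1, a regulatory subunit of PI3 kinase, had probe sets called in opposite directions in goggled eyes (-0.95 and 0.60) and in open eyes (-1.06 and 0.42), and the lower of them had the largest change of this list in both.

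In feedback and targets, 3 of 25 were lower and 2 higher in goggled eyes and 2 lower and 1 higher in open eyes (20% and 12%). Both SPRED1 probe sets, for an inhibitor of RAS signalling, were lower in goggled eyes (log2 -0.26 and -0.33) and in open eyes (-0.31 and -0.36). CCND1, cyclin D1, was higher in goggled eyes (0.41, limma adjusted p = 0.0434), and ETV5, a transcription factor induced by FGF signals, had probe sets called in opposite directions in goggled eyes (-0.53 and 0.44) and 1 called in open eyes (0.55). Of 13 probe sets for other receptors and co-receptors, 4 were lower and 1 higher in goggled eyes and 2 lower in open eyes (38.5% and 15.4%). They were CDH2 (-0.46 in goggled and -0.50 in open eyes), FLRT2 (-0.40 and -0.64), 2 probe sets of FLRT3 (-0.38 and -0.29 in goggled eyes) and, higher in goggled eyes, NCAM1 (0.27). Heparan sulphate genes had 3 of 45 lower and 1 higher in goggled eyes and 0 lower and 1 higher in open eyes (8.89% and 2.22%, both under the share of all probe sets). They were EXT2 (-0.45), which builds the chain, and NDST2, a sulphotransferase whose probe sets were called in opposite directions in goggled eyes (-0.62, -0.43 and 0.37), with 1 called in open eyes (0.40). The 7 probe sets of other ligands had 0 calls between the times.

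For each gene, the probe set of another gene most like its brightest one over the 24 arrays was found by Pearson's r of log2 signals among 20690 to 20694 candidates. FGF14 had the closest, TRHDE (r = 0.942, Spearman's rho 0.892), followed for FGF14 by ROCK2 (0.937) and NAA50 (0.929). With each group's mean taken out, r for TRHDE was 0.718. FGFR2 went most closely with GPNMB (0.897), IGFBP7 (0.892) and CLDN5 (0.891), and rho for GPNMB was 0.632. FGFR1 went with ATP5B (0.864), FGFR3 with IFI6 (0.859), FGF13 with ZFYVE21 (0.854), FGF2 with LRCH2 (0.802), FGF9 with C2H8ORF76 (0.774), FGF1 with NXN (0.772) and FGF12 with ADAMTS10 (0.722). These are descriptions over arrays that share chicks, times and overall brightness. The r named first for each gene is the highest among all its candidates, and those of ROCK2, NAA50, IGFBP7 and CLDN5 come next in order.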

How the data were processed

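Per the labels' protocols, total RNA from each eye was amplified and labelled with biotin, then put on Affymetrix Chicken Genome arrays and read with GCOS 1.4. The submitters' processing notes name GCOS and RMA without their roles. The authors deposited 1 linear signal intensity for each probe set and array, scaled to a 2% trimmed mean of 150.03 on each array. Which software made them was not stated in the sources at hand, and single probes and spot background were not analysed here.

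From the deposited values, 96 control probe sets were removed, log2(signal + 16) was taken, and probe sets with a mean under the 30th percentile (signal 13.4) were left out. Names came from the platform annotation, which gave 1 gene for 27168 of 38439 probe sets, several for 177 and none for 11094, updated through the RefSeq gene table of GRCg7b. Overlap and mean ± SD are over arrays. Limma 3.58.1 in R 4.3.3 was fitted to all 24 arrays as 4 group means, leaving 20 residual degrees of freedom, with empirical Bayes variances, Benjamini-Hochberg adjustment over all 26907 probe sets and a threshold of 0.05. The fit was checked on simulated data. The number of arrays limits the precision.

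The labels number the arrays of each group, and each chick gave both eyes. Same-numbered arrays deviated together from their group means (r 0.102 to 0.445 over 6 pairs at 3 d, and 0.229 to 0.424 over 6 pairs at 6 h). The mean r of the other pairs was -0.055 at 3 d and -0.069 at 6 h. Of 6 goggled arrays, 5 at 3 d and 6 at 6 h had their highest r with the open array of the same number. The numbers were therefore taken to pair the eyes. The block was an alternative, with 10 residual degrees of freedom where fixed and a correlation of 0.263 where random. Other alternatives were filters, offsets of 1 and 50, normalizations, variance models, the choroid marker mean as a covariate, and leaving out arrays. The signal of the W-linked gene HINTW as a covariate and the use of probe set 3 for FGF13 were chosen after seeing the data.

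The members and gene lists were chosen with earlier results of these data known. Every member was to be described. From each pathway list, genes called in any comparison were to be named, with the highest and the lowest at 3 d between the eyes, where none was called. For each member gene, the probe set of another gene with the highest r was to be named, and ROCK2, NAA50, IGFBP7 and CLDN5, next in order, were added after their values were seen. So was the 6 h range of feedback and targets.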

Additional observations from a re-analysis of the deposited data

Results flagged for a closer look

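Each of the following signals lay far from the other 5 arrays of its group by Dixon's test. Of 76 groups of 6 arrays examined (19 probe sets in 4 groups), 8 met the limit, and chance gives about 1 in 20. Of the 8, 7 belong to FGFR2 and to 3 arrays.

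FGFR2 probe set 1 had 245.9 on goggled replicate 3 of 3 d, beside 48.8 to 87.7 on the other goggled arrays of that time, and 294.4 on goggled replicate 5 of 6 h, beside 41.3 to 66.9. In open eyes it had 145.3 on replicate 2 of 3 d, beside 50.3 to 73.8. FGFR2 probe set 2 had 194.9 and 305.4 on the same goggled arrays of 3 d and 6 h, beside 36.2 to 60.4 and 38.5 to 84.3. FGFR2 probe set 4 had 53 and 110.3 there, beside 14.6 to 24.6 and 13.9 to 27.3. The choroid, sclera and vessel marker mean of these 3 arrays ranked 1, 4 and 3 of 24, and its part was not tested.

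FGFR3 probe set 4 had 60.9 on goggled replicate 6 of 6 h, beside 42.9 to 48.9 on the other goggled arrays. That array also had the highest muscle marker mean (9.18 on the log2 scale). The open eye of the same chick, with a muscle marker mean of 5.21, had a higher signal still (goggled minus open log2 -0.14). Of the other goggled arrays high in muscle markers, replicate 5 of 6 h (7.22) lay within 42.9 to 48.9. Replicate 3 of 3 d (7.69) lay within 20.2 to 35.9. The part of the muscle markers was not tested.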

How the results depend on the processing

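The 114 member results were recomputed in 4340 combinations of result and setting. In 4298 they kept their side of the threshold, in 23 a call was lost, in 19 one was gained, and 0 called values changed sign. Many of them could hardly change side. Between goggled and open eyes the reported adjusted p-values of the members were 0.81 or more. Leaving out an array that was not in a comparison left its estimate unchanged. In 197 combinations of 48 results that were not called the value crossed 0, from a reported log2 size of at most 0.26. All 42 changed calls concern the comparison of 3 d with 6 h, 41 of them in goggled eyes. Of calls, FGF2 was lost in 12 settings, FGF9 in 6, FGF13 probe set 2 in 4 and FGFR3 probe set 4 in 1, and under the filter at the 50th percentile FGF2 could not be tested. The number of members called between the times ran from 4 to 8 in goggled eyes (6 as reported) and from 2 to 3 in open eyes (2 as reported), and from 4 to 7 and 2 to 2 when 1 array was left out. With the replicate number as a block, pairing both eyes of a chick, members called between goggled and open eyes stayed at 0 at 3 d, at 6 h and over both times, and no other call changed except FGF13 probe set 1 in goggled eyes, which was called with a random block (adjusted p = 0.0486). Over all probe sets the block moved the count with an unadjusted p under 0.05 to 2395 at 3 d and 1233 at 6 h, against 1448 and 635 without it, and the random block called 4 at 3 d and 11 over both times, where 2 and 2 were called without it. Calls over all probe sets in goggled eyes between the times numbered 3416, 2167 under quantile normalization and 5351 at an adjusted p under 0.10. In open eyes they numbered 1970, 913 with only the 12 arrays compared, 1097 without the 3 arrays highest in choroid markers and 3337 at the looser threshold. Median centring raised the median of all probe sets between the times by 0.20 in goggled and 0.13 in open eyes. The counts of goggle calls over all probe sets, 2 at 3 d and 2 over both times, ran from 0 to 4 and up to 11, and at 6 h 1 probe set was called without goggled replicate 1. The intracellular minus secreted difference ran from -0.12 to -0.003 at 3 d and from -0.05 to 0.01 at 6 h over 7 alternatives each, and from -0.09 to -0.01 and from -0.08 to 0.003 when 1 chick was left out. Causes were not tested. Signals near the background of 22.8 (FGF2, FGFR3 probe set 4, the dimmest FGFR2 probe sets and FGF1 probe set 2) limit what these arrays can show.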
